A study of Mus musculus with 87 samples.

Results

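The genes described here are those whose transcripts kept rising between 12 and 48 h of *Obox4* induction in mouse embryonic stem cells (mESCs). They were chosen from gene counts scaled to the library total (CPM). A gene entered if its mean 48 h level was at least 0.5 CPM, at least 2 times its mean 0 h level and at least 1.75 times its mean 12 h level, with the lowest 48 h library above the highest 0 h library. The well-known 2-cell families (*Zscan4*, *Usp17l*, *Tcstv*, *Tdpoz*, *Obox*, *Pramef*) and *Cacna1s*, *Acan*, *Sp110* and *Zfp352* were left out by name, which removed 23 genes. The rule found 510 of 55487 genes, called members below, and since those 9 libraries chose them, their levels in the induction series are a description with no test.

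The choice used EB3 mESCs (129/Ola) that carry a doxycycline-inducible 3×FLAG-*Obox4* transgene and were grown from picked single-cell clones, given doxycycline for 12 or 48 h or none (0 h), with 3 libraries per time. The 0 h cells had no doxycycline, so the drug and OBOX4 cannot be told apart in that series. All other comparisons used libraries that took no part in the choice. In 2-cell (2C) embryos, B6D2F1 zygotes were injected in the male pronucleus with antisense oligonucleotides (ASOs) against *Obox4* (20 µM), against *Dux* (20 µM), against both (40 µM in total), against both together with 100 ng/µL codon-optimised *Obox4* mRNA, or with a scrambled ASO (40 µM). Each of the 2 libraries per group pooled 30 embryos taken 20 h after injection. Morulae had the double knockdown (KD) or scramble injection, and blastomeres of 2C-embryos were *Obox4* knockout (KO), heterozygous or wild type (WT) on a shared *Dux* KO background, with 2 libraries per group. A further set of EB3 mESCs was *Obox4* KO, *Dux* KO, double KO (made from the *Obox4* KO line) or WT, all treated with the splicing inhibitor pladienolide B (PlaB), with 3 libraries each. Binding of 3×FLAG-OBOX4 (3 peak lists) and 3×FLAG-DUX (1 list) was mapped in inducible mESCs by CUT&RUN, which cuts chromatin next to a bound antibody. H3K4me3, H3K27ac and H3K27me3 were mapped in *Obox4* KO and WT mESCs with and without PlaB (3 lists each).

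DUX is a homeodomain transcription factor that switches on genes of zygotic genome activation (ZGA), the burst of transcription at the mouse 2C stage, and OBOX4 belongs to another homeobox family expressed at that stage. Many 2C-genes start inside MT2_Mm, the long terminal repeat of the endogenous retrovirus MERVL, which then serves as their promoter. In mESCs a small fraction of cells switches these genes on, and splicing inhibition by PlaB is known to raise their level. H3K4me3 and H3K27ac mark active promoters, whereas H3K27me3 is laid down by Polycomb complexes on silent ones, and promoters with both H3K4me3 and H3K27me3 are typical of developmental genes in mESCs.

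The sequences that recur at the starts of members are shown first. MT2_Mm copies are printed from 10 bases before a DUX core (GATTNAATC, searched on both strands) to the annotated gene start, in build GRCm38.p6 and 5′ to 3′ in the direction of the gene. Capitals mark the DUX core and the stem of the OBOX4 motif (CTGGGAT, searched on both strands). They are given for members near MT2_Mm that differ in how far they fell without *Dux* and in whether a DUX peak was called. These members, described below, are *Gm21761* (chr13:119929272-119929427, minus strand), *Gm4340* (chr10:104193886-104194042, plus strand, with no match to the stem), *Clec10a* (chr11:70155983-70156197, plus strand) and *Drr1* (chrX:15939249-15939402, minus strand).
Gm21761: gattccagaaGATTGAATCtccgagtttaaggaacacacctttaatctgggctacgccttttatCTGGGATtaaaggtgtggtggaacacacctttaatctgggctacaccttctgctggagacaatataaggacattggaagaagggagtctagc
Gm4340: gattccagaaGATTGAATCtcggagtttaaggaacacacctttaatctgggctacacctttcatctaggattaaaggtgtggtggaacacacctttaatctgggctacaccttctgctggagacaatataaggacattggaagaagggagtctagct
Clec10a: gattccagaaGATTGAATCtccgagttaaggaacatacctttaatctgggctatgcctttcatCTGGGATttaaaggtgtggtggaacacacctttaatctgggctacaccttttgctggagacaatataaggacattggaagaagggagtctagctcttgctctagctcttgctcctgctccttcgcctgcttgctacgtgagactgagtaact
Drr1: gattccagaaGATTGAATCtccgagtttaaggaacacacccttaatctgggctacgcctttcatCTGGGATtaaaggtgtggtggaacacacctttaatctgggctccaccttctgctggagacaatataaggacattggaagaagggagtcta

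Members with no MT2_Mm start but an OBOX4-bound region are represented by *Porcn*, whose product adds the lipid that WNT proteins need for secretion, and *Vrtn* (vertnin), which had one of the largest ratios in the induction series. For each, the stretch around a CTGGGAT match inside the bound region is printed, from chrX:8207155-8207255 (minus strand) and chr12:84640291-84640391 (plus strand) of GRCm38.p6, with the match in capitals.
Porcn: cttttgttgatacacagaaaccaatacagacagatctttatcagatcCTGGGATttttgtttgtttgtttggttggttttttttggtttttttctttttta
Vrtn: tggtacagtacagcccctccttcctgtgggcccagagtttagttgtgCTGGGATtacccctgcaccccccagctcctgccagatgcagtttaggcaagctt

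The count tables held 14283083 to 104864947 assigned reads per library. Replicates differed by an SD of 0.452 to 0.655 log2 units over genes in the 2C and most PlaB groups. *Obox4* KO replicate 3 (0.928 and 0.959 against the other libraries of its group) and double KO replicate 3 (1.08 and 1.12) stood apart in the PlaB set, as did the morula double KD pair (1.42) and all blastomere pairs (2.26 to 2.85). *Obox4* is a multicopy gene whose 39 copies are annotated as pseudogenes, and no single row carries its symbol, so the copies were summed. With PlaB they stood at 4.10 to 11.5 CPM in *Obox4* KO, 0 to 0.187 CPM in the *Dux* KO and double KO libraries and 15.2 to 16.9 CPM in WT. In the tables that share reads among repeats they stood at 4.67 to 16.1 CPM in *Obox4* KO, 0.049 to 0.378 CPM in the *Dux* KO and double KO libraries and 120 to 126 CPM in WT, and replicate 3 was the highest *Obox4* KO library in both. In 2C-embryos these copies stood at 64.3 and 81.6 CPM after the *Obox4* KD, against 62.1 and 70.8 CPM after scramble, and the groups overlapped. They stood at 55.3 and 48.9 CPM after *Dux* KD, 48.6 and 44.8 CPM after double KD, and 31.5 and 37.9 CPM with *Obox4* mRNA, all below scramble. The paper also stained OBOX4 and DUX protein in injected 2C-embryos, which these sums do not measure. In blastomeres they stood at 18 and 26 CPM in *Obox4* KO, 33.1 and 14.9 CPM in heterozygous and 21.5 and 32.5 CPM in WT cells, so these sums do not separate the genotypes; the deletion there left a distant intact copy in place. *Duxf3*, the copy of *Dux* in the tables, had a count of 0 in every *Dux* KO, double KO and blastomere library. Pluripotency markers (*Pou5f1*, *Sox2*, *Nanog*) were expressed in every mESC library.

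The members were mostly low in uninduced cells. Their rise after 12 h was demanded by the rule, and that interval is also the longer, so it is no evidence of late timing. Their summed level was 428, 454 and 454 CPM at 0 h, 903, 794 and 789 CPM at 12 h, and 1707, 1831 and 1762 CPM at 48 h. The median member averaged 0.32 CPM at 0 h, 0.57 CPM at 12 h and 1.28 CPM at 48 h, a ratio of 3.77 between 48 and 0 h (2.00 to 59.0 over members). By 12 h the median member had covered 23.4% of its rise, and 25 members lay below their 0 h mean at that time. All 48 h libraries lay above all 12 h libraries in 392 members, and all 12 h libraries above all 0 h libraries in 204. The rule used these same libraries, and the counts over all genes were not made. Neither count is therefore read as a result about the members. Only 32 members reached 10 CPM at 48 h, and 189 stayed under 1 CPM, so the low members rest on few reads. In such bulk samples, more cells that express a gene and more RNA per cell cannot be told apart. *Duxf3* was at 0.622, 0.276 and 0.325 CPM at 0 h, 0.749, 0.443 and 1.224 CPM at 12 h, and 1.492, 1.602 and 0.83 CPM at 48 h. These levels rest on counts of 8 to 47, and the part of *Duxf3* in the members' rise was not tested.

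**Figure D1:**
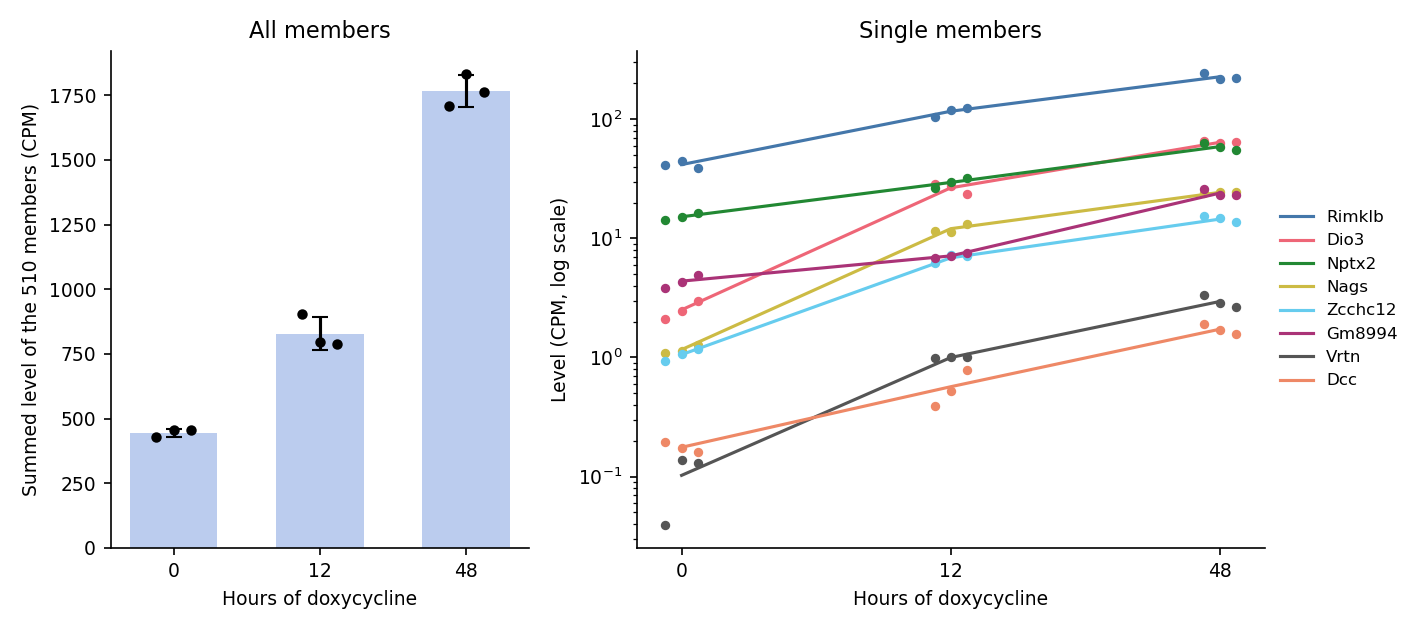
Left, summed CPM of the 510 members at 0, 12 and 48 h of doxycycline (bars, mean; error bars, SD of 3 libraries; points, libraries). Right, CPM of 8 members on a log scale (points, libraries; lines through the means); *Dio3* and *Nags* had already passed 23 and 11 CPM at 12 h, whereas *Gm8994* was at 6.82 to 7.52 CPM at 12 h and 22.9 to 26 CPM at 48 h.

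Protein-coding genes made up 380 of the 510 members (74.5%, against 81.8% of the 17104 genes with a mean 48 h level of at least 0.5 CPM). Long intergenic RNAs (36, 7.06% against 2.93%) and processed pseudogenes (34, 6.67% against 3.39%) took a larger share, and 161 members bear only a clone or ID name. At the thresholds, *Fam43b* was just inside the level limit with a mean of 0.5004 CPM at 48 h, and *Celf6* just outside with 0.4995 CPM. *Sfrp5* was just inside the 48 to 0 h limit with a ratio of 2.0028 and *Fut4* just outside with 1.9981. *Robo4* was just inside the 48 to 12 h limit with 1.7504, and *Myrip* just outside with 1.7492. *Foxa1*, whose lowest 48 h library was 1.0051 times its highest 0 h library, was inside, and *Epas1* (0.9978 times) was outside.

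Metabolic enzymes were among the highest members. *Rimklb*, a ligase that joins N-acetylaspartate or citrate to glutamate, was at 41.1, 45.0 and 38.9 CPM at 0 h, 105, 121 and 125 CPM at 12 h, and 243, 219 and 221 CPM at 48 h. *Dio3*, the deiodinase that inactivates thyroid hormone, was at 2.10, 2.44 and 2.99 CPM at 0 h, 28.7, 27.3 and 23.7 CPM at 12 h, and 65.3, 62.8 and 64.2 CPM at 48 h. *Nags*, which makes the activator of the urea cycle, was at 1.09, 1.14 and 1.27 CPM at 0 h, 11.6, 11.3 and 13.3 CPM at 12 h, and 24.0, 24.7 and 24.4 CPM at 48 h. In these 3 genes the libraries of each time did not overlap those of the next.

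Secreted and surface proteins formed another part of the high end. *Nptx2*, a secreted pentraxin of synapses, was at 14.2, 15.2 and 16.2 CPM at 0 h, 26.6, 29.5 and 32.3 CPM at 12 h, and 62.9, 59.0 and 54.9 CPM at 48 h. *Lamb1*, the β1 chain of basement membrane laminins, was at 13, 14.5 and 17.2 CPM at 0 h, 30.8, 21.5 and 21.3 CPM at 12 h, and 38.8, 47.6 and 48.8 CPM at 48 h. *Lrp2* (megalin), an endocytic receptor, was at 13.1, 13.3 and 11.7 CPM at 0 h, 24.0, 18.3 and 16.0 CPM at 12 h, and 30.5, 44.9 and 41.2 CPM at 48 h. Replicate 1 of *Lamb1* and *Lrp2* was the highest at 12 h and the lowest at 48 h. The same replicate broke the order in *Igdcc3*, an immunoglobulin superfamily receptor, which was at 3.23, 5.79 and 6.04 CPM at 0 h, 20.9, 8.05 and 7.08 CPM at 12 h, and 13.8, 26.3 and 28.7 CPM at 48 h. Without the 48 h replicate 1 the rule would have found 812 genes.

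Large ratios were found both in genes near 0 in uninduced cells, such as *Vrtn* and *Dcc*, and in genes with a higher 0 h level, such as *Dio3*, *Nags* and *Zcchc12*. *Vrtn* was at 0.039, 0.138 and 0.130 CPM at 0 h, 0.985, 1.01 and 1.01 CPM at 12 h, and 3.33, 2.89 and 2.63 CPM at 48 h. *Zcchc12*, a zinc-finger coactivator of BMP signalling, was at 0.933, 1.07 and 1.17 CPM at 0 h, 6.26, 7.25 and 7.08 CPM at 12 h, and 15.3, 14.7 and 13.6 CPM at 48 h. *Dcc*, the netrin receptor that guides axons, was at 0.194, 0.172 and 0.162 CPM at 0 h, 0.394, 0.523 and 0.787 CPM at 12 h, and 1.90, 1.69 and 1.59 CPM at 48 h. Each of the 3 genes was separated at every step. The vomeronasal receptor *Vmn1r88* reached 1.11, 1.82 and 1.30 CPM at 48 h, against 0.117 to 0.227 CPM at 0 h.

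Of 69 genes on a list of 2C-genes outside the families left out by name, 19 were members. They include *Tmem92*, a transmembrane protein, *Usp26*, a deubiquitinase on the X chromosome, the growth factor *Fgf1*, the galectin *Lgals4*, the lipid phosphatase *Inpp4b* and the PHD-finger gene *Phf11a*. *Gm8994*, which shares sequence with related copies, was at 3.85, 4.30 and 4.97 CPM at 0 h, 6.82, 7.04 and 7.52 CPM at 12 h, and 26, 23.1 and 22.9 CPM at 48 h. *Tmem92* was at 1.56, 1.58 and 1.33 CPM at 0 h, 2.60, 3.87 and 3.98 CPM at 12 h, and 10.4, 7.79 and 7.11 CPM at 48 h. Both gained most of their rise after 12 h, which the rule favours. Of the other lists, those with the most members gave 5 of 36 matrix genes (*Col1a2*, *Col5a2*, *Bgn*, *Mmp2* and *Timp3*), 3 of 23 primitive endoderm genes (*Sox17*, *Dab2* and *Lamb1*) and 3 of 39 channel and transporter genes (*Cacna1b*, *Cacna1g* and *Cacna1h*). For scale, 510 of the 17104 genes with a mean 48 h level of at least 0.5 CPM were members, and no list was tested. None of the 20 pluripotency, 24 trophectoderm or 29 p53 and apoptosis genes was a member.

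MT2_Mm was the repeat most often found at the start of a member. Of the 505 members on the assembled chromosomes, 40 (7.92%, 95% Wilson interval 5.87 to 10.6) had a copy within 3000 bases of the start, against 0.629% of the 18592 genes that passed the expression filter and 0.650% of 4768 other genes with a like level at 0 h. The start itself lay inside the copy in 30 members. MT2B1, a related repeat, held the start of 6 members. A DUX peak lay within 3000 bases of 28 members (5.55%, 3.86 to 7.90), against 1.37% of filtered genes and 0.923% of genes of like level. Of the 40 copies, 13 held a DUX peak, among them those printed for *Gm21761* and *Gm4340*, and the copies of *Clec10a* and *Drr1* held none. With a single DUX list, a copy with no called peak is not shown to be unbound. These intervals cover counting error only, and genes that share a repeat or a duplicated locus are not independent.

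OBOX4-bound regions, taken as peaks held by at least 2 of the 3 lists, lay within 3000 bases of 78 members (15.4%, 12.6 to 18.9). This was below the share of filtered genes (37.0%) and of genes of like level (18.9%). The median distance from a member's start to such a region was 42106 bases, against 10650 bases over filtered genes. *Porcn*, whose region rose 19.3-fold over the caller's background on average, was at 1.21, 1.38 and 1.72 CPM at 0 h, 5.87, 5.19 and 7.34 CPM at 12 h, and 10.4, 12 and 10.1 CPM at 48 h. *Vrtn* had a 13.2-fold region. Both binding maps and the induction came from transgenes, and 407 members had neither an OBOX4 region nor a DUX peak near the start.

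The DUX core was present in 38 of the 40 MT2_Mm copies at members and in 2351 of all 2641 copies (89.0%), and the OBOX4 stem in 36 of the 40 and in 2070 of all copies (78.4%). The letters are thus common to the repeat and not particular to members. Among promoters as annotated by RefSeq on its own build (250 bases before to 50 after the start), 8 of 308 matched members held the core (2.60%) against 83 of 27025 promoters (0.31%), and 29 held the stem (9.42%) against 7.05%. The stem lay in 32 of the 77 OBOX4 regions at members (41.6%), against 29.6% of all 20995 regions.

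**Figure D2:**
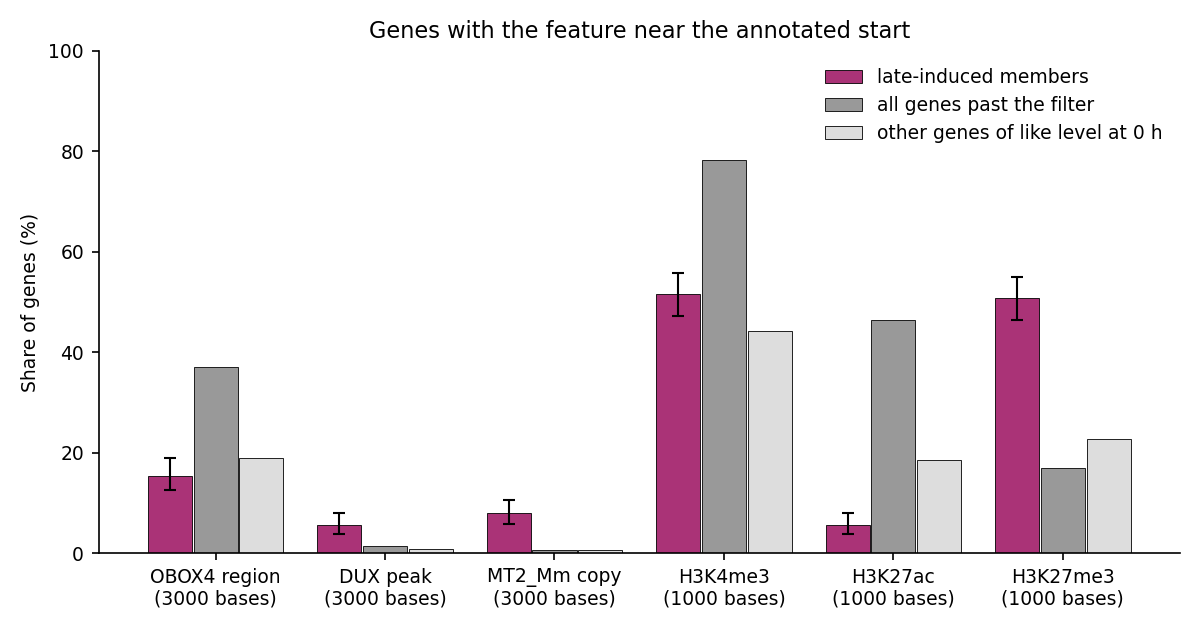
Share of genes with each feature near the annotated start (error bars, 95% Wilson interval for members). Members stood above both sets of other genes for DUX peaks, MT2_Mm copies and H3K27me3, and below both for H3K27ac. For OBOX4 regions they stood below filtered genes and only narrowly below genes of like level. Histone marks are from WT mESCs without PlaB.

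H3K27me3 was more frequent, and H3K27ac less frequent, at members than at other genes in WT mESCs without PlaB. H3K27me3 was held within 1000 bases of the start, in at least 2 of 3 lists, by 256 members (50.7%, 46.3 to 55.0), against 17.0% of filtered genes and 22.6% of genes of like level. H3K4me3 was held by 260 members (51.5%), against 78.2% and 44.3%, and H3K27ac by 28 (5.55%), against 46.4% and 18.5%. Both H3K4me3 and H3K27me3 were present at 192 members. The 40 members near MT2_Mm differed from the others, since none held H3K4me3 and 7 held H3K27me3. The H3K27me3 peaks were weak: with a −log10 q of at least 10, 2 members kept the mark.

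The marks were also compared between *Obox4* KO and WT mESCs, where clone and genotype cannot be told apart. With PlaB, H3K4me3 was found at 226, 221 and 225 members in *Obox4* KO, against 250, 254 and 243 in WT. H3K27ac was found at 21, 25 and 21 members in *Obox4* KO, against 33, 41 and 45 in WT. H3K27me3 was found at 289, 284 and 306 members in *Obox4* KO, against 274, 254 and 235 in WT. In each mark these lists did not overlap between genotypes, and the exact two-sided permutation test gave p = 0.1, the smallest that 3 against 3 lists allow. Over all filtered genes the KO to WT ratio was 1.01 for H3K4me3 and 0.995 for H3K27ac with PlaB, against 0.900 and 0.563 over members. For H3K27me3 it was 1.37 over filtered genes and 1.15 over members. Peaks with a −log10 q of at least 10 left H3K27me3 at 40 members in *Obox4* KO and 4 in WT (7.92% and 0.792%), against 477 and 42 filtered genes (2.57% and 0.226%). At that limit H3K4me3 was found at 201, 194 and 199 members in *Obox4* KO and 206, 198 and 200 in WT, and H3K27ac at 9, 8 and 7 in *Obox4* KO and 7, 11 and 9 in WT, so the genotypes overlapped in both. Without PlaB, H3K4me3 averaged 231 ± 8.62 members in *Obox4* KO and 261 ± 1.00 in WT (SD, n = 3 each; exact permutation p = 0.1), and H3K27ac 26.3 ± 2.08 and 30.7 ± 9.29 (exact permutation p = 0.8). H3K27me3 averaged 283 ± 7.64 members in *Obox4* KO and 258 ± 5.29 in WT without PlaB (exact permutation p = 0.1), a ratio of 1.10 over members and 1.33 over filtered genes.

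The PlaB-treated knockouts were compared with WT. The knockout lines were grown from picked single-cell clones, so clone and genotype cannot be told apart in any of these comparisons. A gene was called at an edgeR quasi-likelihood adjusted p of at most 0.01 and a log2 fold change of at least 1 in size, and 497 of the 510 members passed the expression filter. The summed level of the members was 2976, 2966 and 4535 CPM in *Obox4* KO, 1753, 1730 and 1742 CPM in *Dux* KO, 2565, 2530 and 1961 CPM in double KO, and 6550, 6654 and 6269 CPM in WT. All knockout libraries lay below all WT libraries.

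In *Obox4* KO, 137 members fell and 25 rose. Over all genes tested 3.96% were called lower and 4.92% higher, so members were called lower in 27.6% of cases and higher about as often as other genes (5.03%). Their median log2 fold change was −0.57, against 0.02 over all genes. *Duxf3* was at 2.7, 3.5 and 5.3 CPM in *Obox4* KO and 5.7, 5.7 and 4.6 CPM in WT, and its part in these falls was not tested. Without *Obox4* KO replicate 3, whose summed level lay nearest to WT, 202 members fell and 36 rose, and without WT replicate 1, 2 or 3, 15, 16 or 16 rose. In *Dux* KO 195 members fell and 12 rose (4.7% and 1.62% of all genes), with a median of −0.92 against 0.00, and with any one *Dux* KO or WT library left out 4 to 6 rose. In double KO 216 fell and 44 rose (8.79% and 9.25% of all genes), with a median of −1.14 against −0.06, and 27 or 26 rose without WT replicate 1 or 2. All libraries were at a count of 0 for 44 members in *Dux* KO and 63 in double KO. The 3 comparisons share the WT libraries, so their calls are not independent. In all 3, 125 members fell, but the same count over all genes was not made, so the overlap has no baseline.

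Other lineage markers moved with these genotypes. A list of 23 tested trophectoderm genes summed to 1564 to 3647 CPM in *Obox4* KO, 1067 to 1092 CPM in *Dux* KO, 4721 to 6128 CPM in double KO and 479 to 485 CPM in WT, with 11, 3 and 18 genes called higher in the knockouts. Pluripotency genes summed to 5173 to 5210 CPM, 6413 to 6454 CPM, 3328 to 4329 CPM and 7884 to 7981 CPM in the same order, with 5, 4 and 11 of 20 called lower. Their part in the members' changes was not tested.

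**Figure D3:**
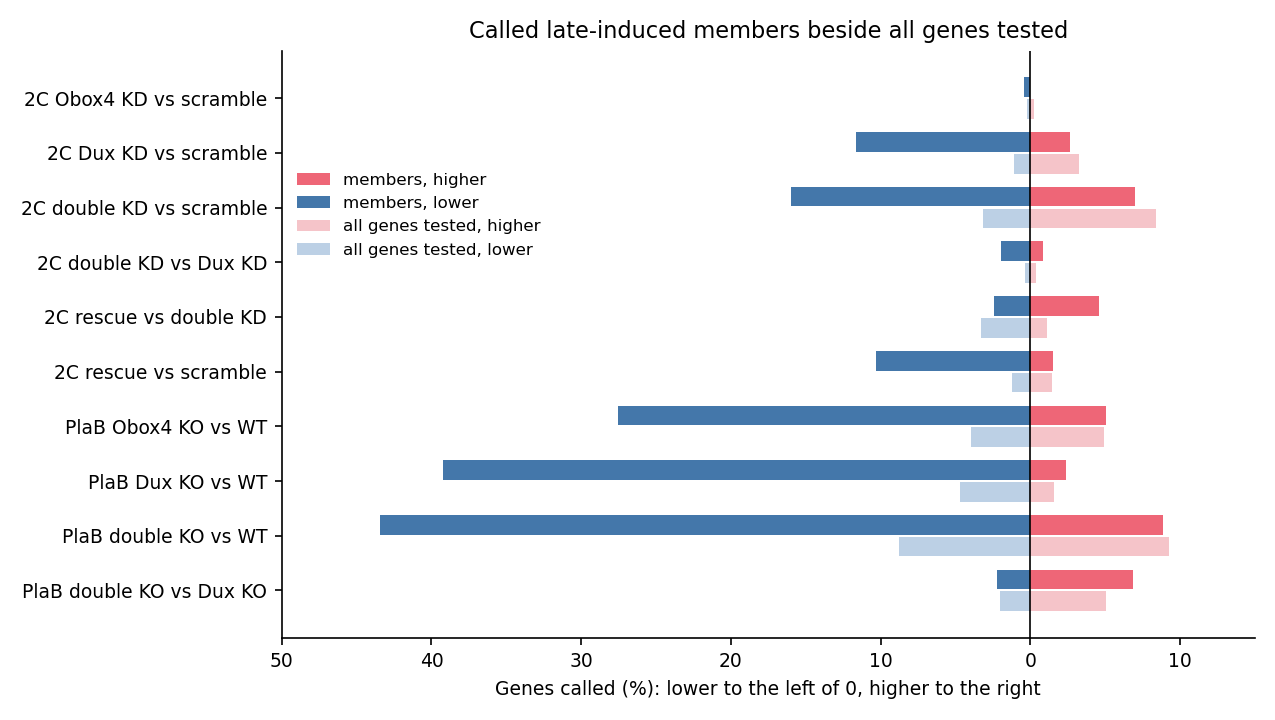
Percentage of members called lower (left of 0) or higher (right of 0) in each comparison, above the same for all genes tested in paler colours. The longest bars are the members called lower in PlaB double KO (43.5%), *Dux* KO (39.2%) and *Obox4* KO (27.6%); rescue is double KD with *Obox4* mRNA.

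In PlaB-treated mESCs, members near MT2_Mm lost nearly all of their level without *Dux*. The 40 of them summed to 242, 258 and 526 CPM in *Obox4* KO, 6.29, 6.49 and 6.83 CPM in *Dux* KO, 5.52, 6.81 and 4.2 CPM in double KO, and 1015, 1037 and 1020 CPM in WT. All 40 fell in *Dux* KO (median log2 fold change −7.91, or −7.70 with genes at 0 set to the level of 3 counts over the group) and all 40 in double KO (−8.10, or −7.23). In *Obox4* KO 35 fell (median −2.24), and 39 did so without its replicate 3. With any one of the 3 WT libraries left out, 27 fell in *Obox4* KO. Among 159 other tested genes near MT2_Mm, 48 fell in *Obox4* KO, 81 in *Dux* KO and 88 in double KO. Of 452 tested members with no copy near the start, 99, 150 and 171 fell in the same knockouts. Among the 28 members near a DUX peak, 16 fell in *Obox4* KO, 26 in *Dux* KO and 26 in double KO. Of 294 other tested genes near a DUX peak, 40, 82 and 106 fell in the same knockouts (13.6%, 27.9% and 36.1%).

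Single genes show the range. *Gm21761*, whose MT2_Mm start is printed above and which has close sequence relatives, was at 129, 143 and 322 CPM in *Obox4* KO and 469, 474 and 487 CPM in WT. It had no reads in *Dux* KO or double KO, which put it at least 21940-fold lower in *Dux* KO and at least 13780-fold lower in double KO than in WT, from the level of 3 counts over each group. The *Obox4* KO libraries all lay below WT, yet the difference was not called (log2 fold change −1.34 ± 0.37 (SE), edgeR adjusted p = 0.0276). *Gm4340*, also printed above, was at 11.9, 12.4 and 25.5 CPM in *Obox4* KO and 43.6, 46.8 and 42.3 CPM in WT. With no reads in the other knockouts, it was at least 2036-fold lower in *Dux* KO and at least 1279-fold lower in double KO than in WT. *Gm8994* was at 45.0, 43.9 and 161 CPM in *Obox4* KO, 0.092, 0.041 and 0.219 CPM in *Dux* KO, 0.312, 0.148 and 0.280 CPM in double KO, and 401, 412 and 395 CPM in WT. It fell in *Obox4* KO (−2.32 ± 0.46, edgeR adjusted p = 0.00294) and in *Dux* KO (−11.82 ± 0.77, edgeR adjusted p = 5.18e-07).

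*Dcc*, *Vmn1r88*, *Drr1* and *Clec10a* fell in both single knockouts with little spread. *Dcc* was at 3.08, 3.77 and 2.92 CPM in *Obox4* KO, 0, 0.041 and 0 CPM in *Dux* KO, 0, 0.049 and 0.140 CPM in double KO, and 28.6, 32.7 and 28.6 CPM in WT. Its log2 fold change was −3.32 ± 0.30 in *Obox4* KO (edgeR adjusted p = 2.03e-05) and −10.81 ± 0.52 in *Dux* KO (edgeR adjusted p = 6.24e-08). *Vmn1r88* was at 5.35, 4.52 and 3.62 CPM in *Obox4* KO and 20.9, 21.5 and 19.4 CPM in WT (−2.33 ± 0.19, edgeR adjusted p = 7.02e-05). With no reads in *Dux* KO it was at least 948-fold lower there than in WT. *Drr1*, a long intergenic RNA, was at 1.85, 1.30 and 1.55 CPM in *Obox4* KO and 8.60, 9.94 and 8.23 CPM in WT, and had no reads in *Dux* KO (at least 411-fold lower) or double KO. *Clec10a*, a lectin known from macrophages, was at 2.15, 2.52 and 2.69 CPM in *Obox4* KO, 0.689, 0.410 and 0.394 CPM in *Dux* KO, 0.374, 0.544 and 0.280 CPM in double KO, and 11.8, 10.5 and 10.4 CPM in WT. Its log2 fold change in *Dux* KO was −4.56 ± 0.27, a smaller fall than the median of members near MT2_Mm.

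**Figure D4:**
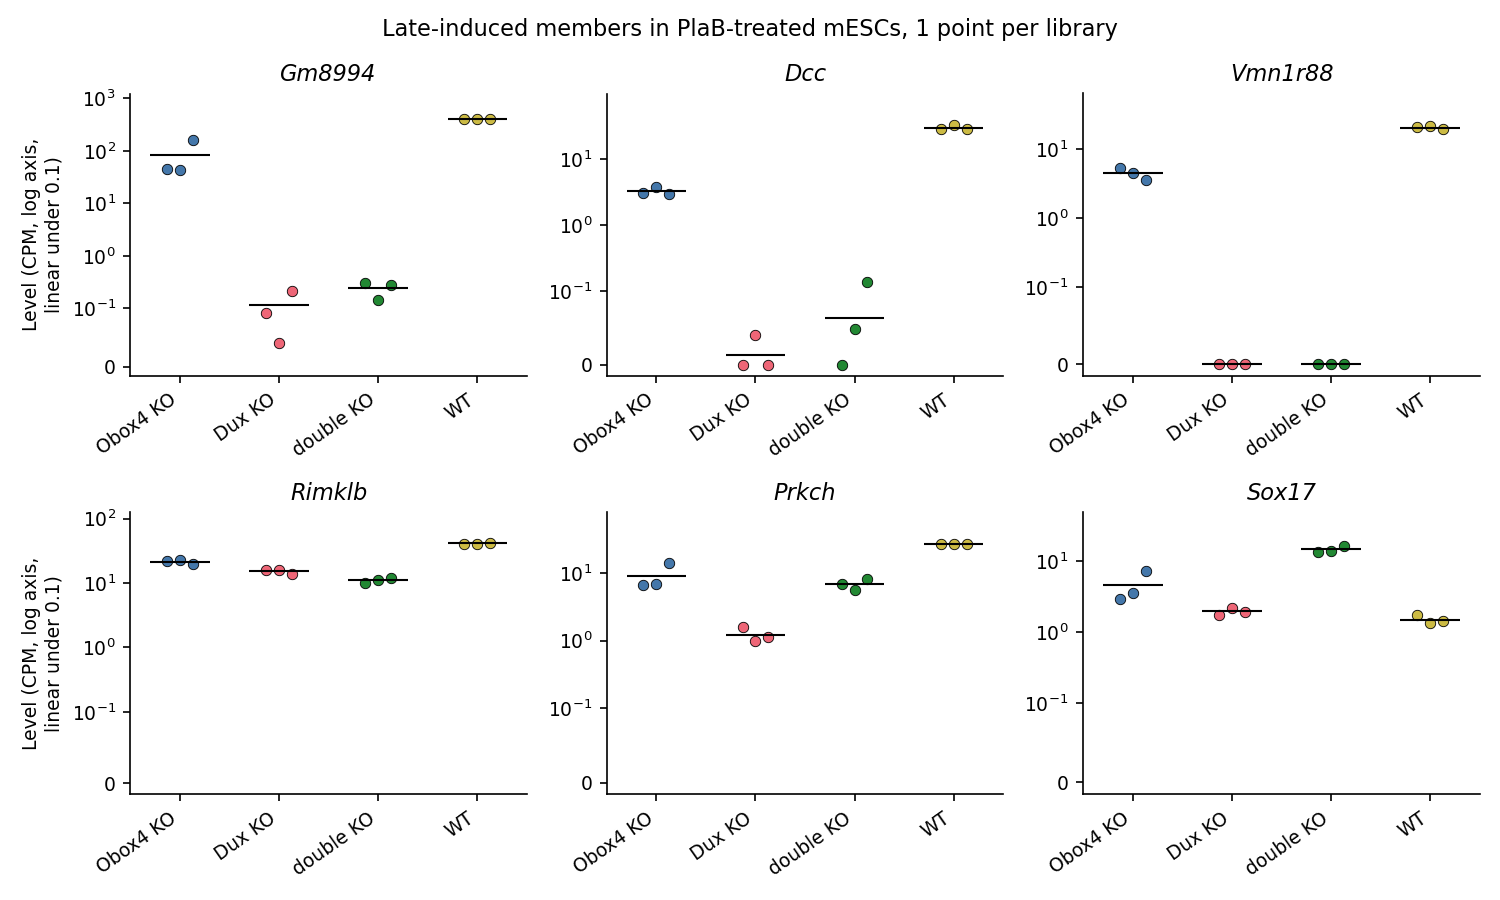
CPM of 6 members in PlaB-treated mESCs (points, 3 libraries per genotype; lines, means; log axis, linear under 0.1 CPM). *Gm8994*, *Dcc* and *Vmn1r88* were below 0.4 CPM in every *Dux* KO and double KO library, *Rimklb* and *Prkch* were lower in all knockouts than in WT, and *Sox17* was highest in double KO.

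Among the 19 members on the 2C-gene list, 10 fell in *Obox4* KO, 18 in *Dux* KO and 19 in double KO. For all 65 tested genes of the list the counts were 23, 40 and 41, with 3, 0 and 3 higher. *Tmem92* parted the genotypes, with 52.3, 52.9 and 87.9 CPM in *Obox4* KO, 0.207, 0.307 and 0.372 CPM in *Dux* KO, 0.374, 0.643 and 0.140 CPM in double KO, and 79.7, 80.2 and 73.8 CPM in WT. It fell in *Dux* KO (−8.13 ± 0.37, edgeR adjusted p = 5.23e-08), whereas its *Obox4* KO libraries overlapped WT. *Fgf1* was at 4.06, 5.78 and 7.59 CPM in *Obox4* KO, 0.046, 0.164 and 0 CPM in *Dux* KO, 0.062, 0.099 and 0 CPM in double KO, and 22.2, 20.8 and 20.3 CPM in WT. It fell in both single knockouts (*Obox4* KO −1.95 ± 0.37, edgeR adjusted p = 0.00209; *Dux* KO −8.23 ± 0.55, 6.29e-07).

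The highest members behaved in several ways. *Rimklb* was at 21.8, 22.6 and 19.8 CPM in *Obox4* KO, 16.1, 16.1 and 14.0 CPM in *Dux* KO, 10.0, 11.3 and 12 CPM in double KO, and 40.4, 41.0 and 42.3 CPM in WT. It fell in *Obox4* KO (−1.07 ± 0.15, edgeR adjusted p = 0.000328), in *Dux* KO (−1.53 ± 0.15) and in double KO (−1.74 ± 0.16). *Dio3* was at 4.18, 5.03 and 11.6 CPM in *Obox4* KO, 5.44, 6.29 and 5.87 CPM in *Dux* KO, 1.75, 3.32 and 1.40 CPM in double KO, and 19.5, 17.8 and 17.0 CPM in WT, and fell in *Dux* KO (−1.73 ± 0.38, edgeR adjusted p = 0.00684). *Lrp2* went the other way, at 214, 198 and 217 CPM in *Obox4* KO, 203, 192 and 195 CPM in *Dux* KO, 708, 562 and 377 CPM in double KO, and 92.3, 88.4 and 88.4 CPM in WT. It rose in all 3 (1.11 ± 0.13, 1.02 ± 0.13 and 2.73 ± 0.14, each with an edgeR adjusted p of at most 0.000165). *Nptx2* and *Lamb1* were called in none of the 3.

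The members that rose in *Obox4* KO include *Osgin1*, an oxidative stress response gene, and *Nfatc1*, a calcineurin-dependent transcription factor. *Osgin1* was at 32.9, 34.5 and 4.35 CPM in *Obox4* KO, 1.65, 1.97 and 1.69 CPM in *Dux* KO, 5.49, 6.09 and 3.5 CPM in double KO, and 0.358, 1.01 and 0.772 CPM in WT. Replicate 3 of *Obox4* KO again lay nearest to WT, and the gene rose by 4.87 ± 0.62 (edgeR adjusted p = 0.000153). *Nfatc1* was at 16.1, 10.9 and 7.30 CPM in *Obox4* KO and 1.55, 2.51 and 2.01 CPM in WT (2.35 ± 0.27). *Sox17*, a transcription factor of endoderm, was at 2.89, 3.52 and 7.24 CPM in *Obox4* KO, 1.74, 2.17 and 1.93 CPM in *Dux* KO, 13.5, 13.8 and 16.2 CPM in double KO, and 1.73, 1.33 and 1.44 CPM in WT. It rose in double KO against WT (3.43 ± 0.38) and against *Dux* KO (3.16 ± 0.37, edgeR adjusted p = 0.000123). A primitive endoderm list that includes *Sox17*, *Dab2* and *Lamb1* summed to 2056 to 2310 CPM in double KO and 1650 to 1703 CPM in WT, with 11 of 21 genes higher.

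The effect of *Obox4* loss in cells without *Dux*, minus that in cells with *Dux* (the interaction term of the fit), was called positive for 28 members and negative for 3 (0.793% and 0.452% of all genes). Without *Obox4* KO replicate 3, 110 were positive and 26 negative, and with any other single library left out, except double KO replicate 3, 6 to 16 were positive and 2 negative. The summed *Obox4* copies already stood at 0.123 to 0.138 CPM in *Dux* KO, so little *Obox4* RNA was left to lose there. The double KO and *Dux* KO lines are separate clones with separately made *Dux* deletions, so clone and loss of *Obox4* cannot be told apart. Between them 34 members rose and 11 fell in the double KO (5.07% and 2% of all genes), a share near the background. Without *Dux* KO replicate 1, 2 or 3, 16, 16 or 17 rose and 6, 8 or 7 fell. The fallers include *Usp26*, at 0.562, 0.421 and 0.140 CPM in double KO and 2.71, 2.62 and 2.39 CPM in *Dux* KO (−2.45 ± 0.41, edgeR adjusted p = 0.00136), and *Vrtn*, at 0.125, 0.247 and 0.140 CPM in double KO and 1.19, 0.532 and 1.40 CPM in *Dux* KO (−2.32 ± 0.48, edgeR adjusted p = 0.00477). *Prkch*, a protein kinase C, rose, at 6.93, 5.57 and 8.12 CPM in double KO and 1.56, 0.983 and 1.12 CPM in *Dux* KO (2.75 ± 0.37, edgeR adjusted p = 0.00032). The groups did not overlap in any of these 3 genes. The trophectoderm list was called higher in the double KO for 14 of 23 genes.

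In 2C-embryos the members were tested after each injection, and 456 of the 510 passed the filter. The *Obox4* KD moved few of them: none rose and 2 fell (0.23% and 0.182% of all genes, edgeR). DESeq2 called 1 higher and 3 lower of 336 members tested, against 74 and 46 of 15072 genes. An unadjusted edgeR p under 0.05 was found for 108 members. No share over all genes is given beside that count, so it is not read as a result about the members. *Gm7957*, a processed pseudogene with close copies, was at 31.1 and 23.0 CPM after *Obox4* KD and 69.6 and 65.9 CPM after scramble (−1.39 ± 0.18, edgeR adjusted p = 0.00032). *Myh6*, a cardiac myosin heavy chain, was at 0.229 and 0.293 CPM after *Obox4* KD and 0.917 and 1.76 CPM after scramble (−2.38 ± 0.41, edgeR adjusted p = 0.00265). Neither gene's groups overlapped. The single KDs used 20 µM ASO and the scramble 40 µM, so amount and target differ together.

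After *Dux* KD 53 members fell and 12 rose (1.05% and 3.25% of all genes), and after double KD 73 fell and 32 rose (3.16% and 8.42%). With any one library left out 4 to 6 rose after *Dux* KD, and without double KD replicate 1, 15 rose after double KD. Of the 40 members near MT2_Mm, 13 fell after *Dux* KD and 26 after double KD, and none rose. Among 243 other tested genes near MT2_Mm, 27 and 57 fell. The summed level of the 40 was 1188 and 1037 CPM after *Obox4* KD, 943 and 901 CPM after *Dux* KD, 744 and 799 CPM after double KD, 786 and 1071 CPM with *Obox4* mRNA, and 1444 and 1356 CPM after scramble. All treated libraries lay below scramble.

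Some members were lower after double KD than after *Dux* KD alone. *Gm8994* was at 92.0 and 88.3 CPM after *Obox4* KD, 36 and 30.6 CPM after *Dux* KD, 12.1 and 14.6 CPM after double KD, 36.5 and 49.1 CPM with *Obox4* mRNA, and 110 and 107 CPM after scramble. It was lower after double KD than after scramble (−3.27 ± 0.14, edgeR adjusted p = 5.38e-11) and than after *Dux* KD (−1.40 ± 0.14, edgeR adjusted p = 1.09e-05). *Olfr787*, an olfactory receptor gene, was at 11.7 and 10.5 CPM after *Obox4* KD, 5.73 and 6.09 CPM after *Dux* KD, 1.25 and 1.83 CPM after double KD, 3.51 and 6.76 CPM with *Obox4* mRNA, and 14.2 and 17.1 CPM after scramble. It fell after double KD (−3.62 ± 0.28 against scramble, edgeR adjusted p = 3.32e-08, and −2.03 ± 0.29 against *Dux* KD, edgeR adjusted p = 0.000258). *Tmem92* was at 165 and 135 CPM after *Obox4* KD, 77.3 and 65.6 CPM after *Dux* KD, 52.9 and 56.8 CPM after double KD, 60.7 and 99.98 CPM with *Obox4* mRNA, and 222 and 186 CPM after scramble, and fell after *Dux* KD (−1.69 ± 0.17) and double KD (−2.14 ± 0.18), with no call between the KDs (−0.45 ± 0.17, edgeR adjusted p = 0.11). Against *Dux* KD, 9 members were lower and 4 higher after double KD (0.377% of all genes in each direction). Without double KD replicate 1 the counts were 4 and 0, and without *Dux* KD replicate 2 they were 8 and 0. The interaction of the 2 knockdowns was called positive for 0 members and negative for 1, *Gm8994* (0.0866% and 0.169% of all genes). There edgeR gave 89 members an unadjusted p under 0.05, and DESeq2 called 2 positive and 5 negative. No share over all genes is given beside the unadjusted and DESeq2 counts, so they are not read as results about the members. The edgeR call on *Gm8994* was lost with a replicate block and with any one of the 8 libraries left out.

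Other members were higher after the double KD, though members were called higher no more often than all genes (7.02% against 8.42%). The genes that follow are single cases. *Lgals4* was at 1.77 and 1.99 CPM after *Obox4* KD, 4.39 and 5.06 CPM after *Dux* KD, 10.1 and 9.97 CPM after double KD, 3.30 and 3.75 CPM with *Obox4* mRNA, and 1.25 and 1.34 CPM after scramble (double KD against scramble 2.71 ± 0.21, edgeR adjusted p = 3.7e-08). *Cacna1g*, a T-type calcium channel, was at 0.687 and 1.17 CPM after *Obox4* KD, 2.10 and 1.45 CPM after *Dux* KD, 4.30 and 4.05 CPM after double KD, 1.92 and 1.45 CPM with *Obox4* mRNA, and 0.472 and 0.382 CPM after scramble (3.02 ± 0.35). *Vash2*, a vasohibin that removes tyrosine from tubulin, was at 0.883 and 0.847 CPM after *Obox4* KD, 3.05 and 3.04 CPM after *Dux* KD, 6.97 and 6.41 CPM after double KD, 2.76 and 1.78 CPM with *Obox4* mRNA, and 0.861 and 0.688 CPM after scramble (2.85 ± 0.28). In all 3 the double KD libraries were the highest of the 10. *Lgals4* had fallen in *Dux* KO mESCs with PlaB, where it was at 3.10, 3.71 and 3.55 CPM, against 44.9, 41.6 and 38.3 CPM in WT. The highest member in mESCs, *Rimklb*, was at 187 and 188 CPM after double KD and 216 and 237 CPM after scramble, a difference under the limit for a call.

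**Figure D5:**
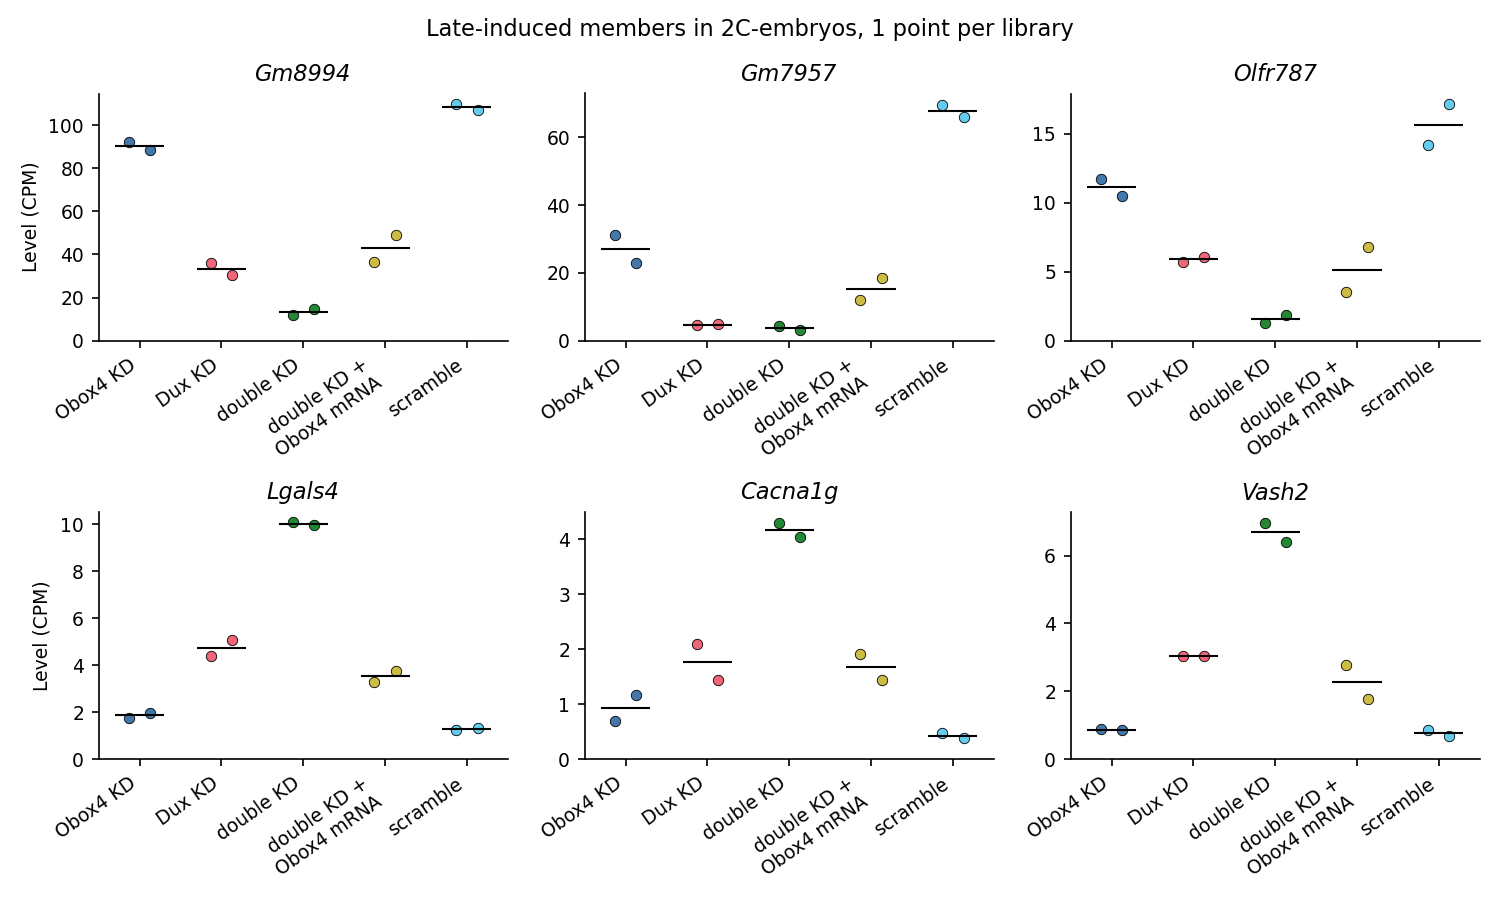
CPM of 6 members in 2C-embryos (points, 2 libraries per group; lines, means; linear axes from 0). *Gm8994*, *Gm7957* and *Olfr787* were lowest after double KD, whereas *Lgals4*, *Cacna1g* and *Vash2* were highest there, and the groups with *Obox4* mRNA lay between double KD and scramble in all 6.

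Adding *Obox4* mRNA to the double KD raised 21 members and lowered 11, relative to double KD alone (1.1% and 3.27% of all genes). *Duxf3* moved with this group, at 8.19 and 5.69 CPM with mRNA, 4.26 and 3.14 CPM after double KD, 3.86 and 1.98 CPM after *Dux* KD and 5.89 and 7.15 CPM after scramble, and its part in the result was not tested. Without replicate 1 of the mRNA group 35 rose and 11 fell, and without its replicate 2, 12 rose and 13 fell. Without double KD replicate 1, 15 rose and 4 fell. *Gm8994* rose (1.82 ± 0.14, edgeR adjusted p = 1.74e-07), as did *Gm7957*, at 11.9 and 18.6 CPM with mRNA and 4.48 and 3.17 CPM after double KD (2.10 ± 0.21). *Gm5580*, another locus with close copies, was at 24.4 and 36.4 CPM with mRNA and 9.88 and 6.66 CPM after double KD (1.99 ± 0.19, edgeR adjusted p = 1.07e-06). *Lgals4* fell (−1.38 ± 0.18, edgeR adjusted p = 2.64e-05), and so did *Lct*, the lactase gene, at 6.36 and 4.61 CPM with mRNA and 15.4 and 16.7 CPM after double KD (−1.41 ± 0.17). *Dnmt3c*, a DNA methyltransferase of the rodent male germ line, was at 2.62 and 2.32 CPM with mRNA and 9.01 and 6.77 CPM after double KD (−1.54 ± 0.21). Against scramble, 47 members were called lower and 7 higher with mRNA (1.24% and 1.43% of all genes). Without replicate 1 of the mRNA group 28 were lower and 3 higher, and without scramble replicate 1, 33 and 1. This comparison shares libraries with the preceding ones.

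In morulae, 422 members were tested and edgeR called none in either direction (0% of all genes each way), with 153 members at an unadjusted p under 0.05, and DESeq2 called 48 higher. The median log2 fold change was 1.06, against 0.02 over all genes, and double KD replicate 2 stood apart. *Gm8994* was at 4.49 and 77.5 CPM after double KD and 2.05 and 2.18 CPM after scramble, and *Tmem92* at 2.23 and 73.4 CPM after double KD and 3.56 and 3.67 CPM after scramble. *Duxf3* was at 0.286 and 7.30 CPM after double KD and 0.134 and 0.084 CPM after scramble, so it moved with the same library. Fits with a single morula library left in a group assumed that it varied like the other group. The number of members they called depended strongly on which library was left out. No share over all genes is given for these fits, for DESeq2 or for the unadjusted p. None of these counts is therefore read as a result about the members.

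In blastomeres, all *Dux* KO, 390 members were tested between cells labelled *Obox4* KO, heterozygous and WT, whose summed *Obox4* copies overlapped. edgeR called none between *Obox4* KO and *Obox4* WT or between heterozygous and WT cells (0% of all genes each), with 37 and 17 members at an unadjusted p under 0.05. DESeq2 called 5 higher and 18 lower in *Obox4* KO, and 2 higher and 5 lower in heterozygous cells. No share over all genes is given beside the DESeq2 and unadjusted counts, so they are not read as results about the members. The median log2 fold change was −0.37 in *Obox4* KO and −0.15 in heterozygous cells, against −0.03 over all genes in both. Without *Dux* in any group, the 40 members near MT2_Mm summed to 559 and 462 CPM in *Obox4* KO. Their sums were 1303 and 676 CPM in heterozygous and 1013 and 1228 CPM in WT blastomeres, and none of the 37 tested was called. *Gm8994* was at 0.025 and 0.453 CPM in *Obox4* KO, 7.17 and 0.022 CPM in heterozygous and 16.2 and 4.8 CPM in WT blastomeres. *Gm21761* was at 2.66 and 11.6 CPM in *Obox4* KO, 34.4 and 10.3 CPM in heterozygous and 22.0 and 36 CPM in WT blastomeres. The *Obox4* KO libraries of both genes lay below the WT libraries, while the replicates within a group differed several-fold. *Rimklb*, at 194 and 235 CPM in *Obox4* KO and 223 and 228 CPM in WT, overlapped between genotypes.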

How the data were processed

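Per the labels, the authors trimmed reads with fastp 0.23.2, aligned them to GRCm38.p6 with STAR 2.7.9a and counted genes with featureCounts 2.0.1, discarding multi-mapping reads; strand use in counting is not given in the sources used here, so overlapping antisense genes may share reads. The deposited counts were tested as they are. Tables that share reads among repeats hold deposited expected counts, which were rounded, as were the deposited blastomere tables, whose values are fractional. Peak lists, with the deposited fold and −log10 q of each peak, came from Bowtie2 2.4.1 and MACS3 3.0.0a6, one list per library. The members and gene lists were chosen with earlier results of these data known.

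Tests were edgeR 4.0.16 quasi-likelihood fits (R 4.3.3, TMM, filterByExpr) with all groups of an experiment in one model, Benjamini-Hochberg adjustment over all genes tested, and calls at adjusted p of at most 0.01 and a log2 fold change of at least 1 in size; errors are SEs of the log2 fold change. DESeq2 1.42.0, no filter, repeat-table counts, a replicate block and leaving out each library were alternatives. On simulated data the fits recovered 78.3% of 4-fold changes in the 2C set (double KD against scramble, 21963 genes), 85.2% in morulae (double KD against scramble, 21373 genes), 89.8% in blastomeres (*Obox4* KO against WT, 18871 genes) and 92.1% in the PlaB set (double KO against WT, 21492 genes). These data were drawn with the same spread between replicates in every set. Real morula double KD and blastomere replicates differed more than those of the 2C set. The shares thus do not show how many changes would be found there. Named genes were taken by rule: the 12 highest and 12 largest ratios, up to 6 per direction and comparison among members with a mean count of at least 20 and libraries that did not overlap, members of lists, genes with the strongest peaks or repeats, and those next to a threshold; *Clec10a* was chosen after its values were seen. The labels do not say whether replicates of the cell lines were separate cultures, so their p-values measure the spread between these samples. The 3 IgG control lists, which belong to no group, were not used.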

Additional observations from a re-analysis of the deposited data

Results flagged for a closer look

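In PlaB-treated mESCs, the effect of losing *Obox4* was compared between cells without and with *Dux*, by the interaction term of the edgeR fit. It was called for 31 members, 28 positive and 3 negative (0.793% and 0.452% of all genes), and the median over members was 0.59 log2 units, against −0.06 over all genes. Without *Obox4* KO replicate 3, 110 were positive and 26 negative, and with any other single library left out, except double KO replicate 3, 6 to 16 were positive and 2 negative. A positive term means that *Obox4* loss lowered the gene less, or raised it more, in *Dux* KO cells than in cells with *Dux*. In *Dux* KO, 44 members had a count of 0 in all libraries, and such members cannot fall further in double KO. The summed *Obox4* copies were also at 0.123 to 0.138 CPM in *Dux* KO, against 15.2 to 16.9 CPM in WT. The term thus cannot separate a changed effect of *Obox4* loss from these limits.

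Among the named positive terms, *Rbms3*, an RNA-binding protein gene, had 4.53 and *Prkch* 4.38. *Prkch* was at 6.67, 6.80 and 13.9 CPM in *Obox4* KO, 1.56, 0.983 and 1.12 CPM in *Dux* KO, 6.93, 5.57 and 8.12 CPM in double KO, and 26.9, 26.6 and 26.8 CPM in WT, so that the double KO lay near *Obox4* KO and above *Dux* KO. The neurokinin receptor gene *Tacr3* had 3.77, *Stox1* 3.53, the oxidase gene *Duox2* 3.52 and the kinase gene *Stk32c* 3.25. The negative terms were those of *Zfp467*, a zinc-finger gene (−3.08), the serotonin receptor gene *Htr5a* (−2.34) and the metalloproteinase gene *Mmp28* (−1.97). *Htr5a* was at 21, 19.5 and 12.2 CPM in *Obox4* KO, 22.5, 22.9 and 23.9 CPM in *Dux* KO, 11.3, 10.3 and 5.39 CPM in double KO, and 6.87, 6.88 and 7.10 CPM in WT, so both single knockouts were higher than WT.

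In 2C-embryos the interaction was called for 1 member, *Gm8994*, at −1.07 ± 0.19 (edgeR adjusted p = 0.00626; 0.169% of all genes negative and 0.0866% positive). The call was lost with a replicate block and with any one of the 8 libraries left out.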

How the results depend on the processing

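Of 201 alternatives for the summary results, 136 stayed within 1.5 times the main value; of 1080 alternatives for 116 calls on named genes, 905 kept the call, 175 lost it (161 with a replicate left out) and 0 reversed. The member set held 1169 genes with no minimum level and 321 with a minimum of 1 CPM (475 to 812 with a library left out). DESeq2 called 4 members after *Obox4* KD, 7 for the 2C interaction, 48 in morulae, 23 in *Obox4* KO and 7 in heterozygous blastomeres, 73 between PlaB double KO and *Dux* KO, and 99 for the PlaB interaction. With no filter the counts were 4 after *Obox4* KD, 110 in morulae and 4 in *Obox4* KO blastomeres. With a replicate block the 2C interaction had 0 and the PlaB interaction 17; the numbers do not pair the samples (correlations of −0.041 to 0.102 between same-numbered libraries), and the block moved no other count by over 1.5 times. With a replicate left out, 1 to 2 members were called after *Obox4* KD, 4 to 10 between double KD and *Dux* KD, 19 to 46 with mRNA against double KD and 31 to 69 against scramble, 0 to 2 for the 2C interaction, 13 to 222 in morulae, 1 to 10 in *Obox4* KO and 0 to 2 in heterozygous blastomeres, 22 to 45 between PlaB double KO and *Dux* KO, and 8 to 136 for the PlaB interaction; the cause was not tested. Counts near MT2_Mm, DUX peaks and OBOX4 regions without single libraries were added after seeing the data. The counts of called members in this paragraph have no share over all genes beside them and show only how far the number of calls moved.

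OBOX4 regions lay within 10000 bases of 138 members and, with a −log10 q of at least 10, near 36 (61 to 70 with a list left out); DUX peaks lay within 10000 bases of 56. H3K27ac within 3000 bases was held by 31 members in *Obox4* KO and 58 in WT with PlaB, and by 22 in WT with PlaB in all 3 lists. With a −log10 q of at least 10, H3K27ac was held by 7 members in *Obox4* KO with PlaB, 9 in *Obox4* KO without, 9 in WT with PlaB and 8 in WT without; H3K27me3 by 40, 47, 4 and 2 in the same order.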
